A study of Homo sapiens with 8 samples.

Results

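The keratin gene clusters are the protein-coding genes whose symbol is KRT followed by a number, without the keratin-associated protein (KRTAP) genes. GENCODE listed 55 of them on chromosomes 12 and 17, of 19970 protein-coding genes on the 23 chromosomes that carried peaks. Of these, 27 lie on chromosome 12 in the type II cluster, which also holds the type I gene KRT18, and 28 lie on chromosome 17 in the type I cluster. Open chromatin was taken from 4 ATAC-seq peak lists, whose peaks were merged into 126658 regions, and the 132 regions within 10 kb of a keratin gene body were kept. The type II cluster held 87 of them and the type I cluster 45.

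The study followed the response of wild-type MCF10A cells, an immortalised, non-tumorigenic line of human mammary epithelium, to TGFβ1, a cytokine that drives epithelial to mesenchymal transition. Cells received solvent (BSA in PBS, labelled as time 0, and per the study's description given for 72 h) or 5 ng/ml recombinant human TGFβ1 for 6, 24 or 72 h, with 2 replicates in each of the 4 conditions. The medium of all groups contained horse serum, EGF, hydrocortisone, cholera toxin and insulin. The line is a single immortalised isolate, so it stands for one genetic background.

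Peaks were called by the authors on both replicates of a condition together, so each condition gives 1 peak list and no replicate error. No test was therefore possible and no p-value is given. Each peak carries an AUC, the area under the caller's significance curve, which grows with sequencing depth, with height and with width, and which was summed per region and per list. The number of usable reads behind each list is unknown. The lists held 86209 peaks in solvent and 107656, 118433 and 116720 peaks after 6, 24 and 72 h of TGFβ1, and the AUC at regions within 3 kb of a transcription start site (TSS) was higher than in solvent by a median of 0.44, 0.38 and 0.25 on the log2 scale. These medians were subtracted, and the result is called the scaled log2 change. A gene or region was called higher or lower at a scaled change of at least 1.5-fold, which is a rule of size. A region with a peak in one list only was called gained or lost, with no fold. In bulk cells, a larger share of cells with open chromatin and wider opening in each cell cannot be told apart.

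Keratins are the intermediate filament proteins of epithelia, and each filament pairs a type I with a type II chain. KRT5 and KRT14 form the filaments of basal epithelial cells, including the myoepithelial layer of the breast, whereas KRT8 and KRT18 form those of simple and luminal epithelium. KRT6A, KRT6B, KRT16 and KRT17 are known for their induction in wounded and hyperproliferative epithelium, KRT1, KRT10 and their relatives for differentiation of stratified epithelia, and a large group for hair and nail.

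The 4 marker genes KRT5, KRT14, KRT8 and KRT18 all had a peak at their own promoter in every list, so open chromatin was present at basal and at luminal keratin promoters of the same cell line. The solvent summits of KRT5 and KRT18 are shown as 201 bases of GRCh38 (hg38), centred on the summit and read in the direction of transcription. Capitals mark matches to 4 letter patterns on either strand: TGAGTCA or TGACTCA (the AP-1 motif), GCCNNNGGC (TFAP2), AACCGGTT (GRHL) and CACCTG (an E-box, CAGGTG on the other strand).
KRT5, chr12:52520457-52520657, minus strand, summit 163 bp upstream of the canonical TSS: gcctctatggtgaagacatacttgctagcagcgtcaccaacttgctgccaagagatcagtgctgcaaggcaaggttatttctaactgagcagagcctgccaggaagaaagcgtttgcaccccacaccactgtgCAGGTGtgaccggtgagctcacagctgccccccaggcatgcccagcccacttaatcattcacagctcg
KRT18, chr12:52949848-52950048, plus strand, summit 830 bp downstream: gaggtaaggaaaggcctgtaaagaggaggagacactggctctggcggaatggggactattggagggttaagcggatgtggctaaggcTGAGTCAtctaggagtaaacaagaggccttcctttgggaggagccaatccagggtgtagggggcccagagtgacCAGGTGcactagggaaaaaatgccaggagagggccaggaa
The KRT5 window held 1 E-box and the KRT18 window 1 AP-1 motif and 1 E-box. The KRT18 promoter region also overlaps an annotated TSS of KRT8, which is not the canonical one.

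The windows around the summits of 3 regions with the largest scaled rise at 72 h, among those with a solvent AUC of at least 400, are shown next, because they carry the gains described for KRT7, KRT19 and KRT14.
KRT7 and KRT86, chr12:52253335-52253535, plus strand: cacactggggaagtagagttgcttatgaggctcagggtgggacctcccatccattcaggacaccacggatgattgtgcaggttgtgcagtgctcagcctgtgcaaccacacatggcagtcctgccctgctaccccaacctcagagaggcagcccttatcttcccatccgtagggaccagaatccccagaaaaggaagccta
KRT19, chr17:41530230-41530430, minus strand, summit 2022 bp upstream of its TSS: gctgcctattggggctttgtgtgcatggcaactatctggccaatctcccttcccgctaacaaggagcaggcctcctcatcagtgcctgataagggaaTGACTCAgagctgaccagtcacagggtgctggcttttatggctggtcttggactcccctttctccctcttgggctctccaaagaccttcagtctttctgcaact
KRT14, chr17:41588475-41588675, minus strand, summit 1680 bp upstream of its TSS: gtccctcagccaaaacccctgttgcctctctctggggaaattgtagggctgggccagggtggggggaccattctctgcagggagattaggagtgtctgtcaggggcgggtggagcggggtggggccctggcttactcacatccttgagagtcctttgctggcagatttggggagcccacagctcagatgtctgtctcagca
Of these, the KRT19 window held 1 AP-1 motif, and the KRT7 and KRT14 windows held none of the 4 patterns. The next windows belong to the largest decreases and to the strongest region lost at 24 and 72 h.
KRT8, chr12:52906449-52906649, minus strand, summit 1473 bp upstream of the canonical TSS: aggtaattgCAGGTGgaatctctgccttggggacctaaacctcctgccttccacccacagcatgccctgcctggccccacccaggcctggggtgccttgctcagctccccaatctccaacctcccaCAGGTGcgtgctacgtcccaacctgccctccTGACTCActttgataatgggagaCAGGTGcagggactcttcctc
KRT80, chr12:52197952-52198152, minus strand, summit 6038 bp upstream: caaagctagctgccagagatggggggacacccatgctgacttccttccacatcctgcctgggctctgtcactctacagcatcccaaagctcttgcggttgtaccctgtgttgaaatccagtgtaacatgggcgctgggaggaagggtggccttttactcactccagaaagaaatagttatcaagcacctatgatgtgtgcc
KRT24, lost, chr17:40696561-40696761, minus strand, summit 7091 bp downstream: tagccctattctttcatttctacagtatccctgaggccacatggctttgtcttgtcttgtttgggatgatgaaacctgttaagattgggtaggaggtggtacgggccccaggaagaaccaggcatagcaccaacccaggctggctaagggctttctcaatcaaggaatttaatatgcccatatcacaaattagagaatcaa
The KRT8 window held 3 E-boxes and 1 AP-1 motif. In the KRT7 window, 3 stretches of 20 bases occurred 2, 4 and 1 times in hg38, while the same stretches of the remaining windows occurred once. The effect of repeated sequence on read placement was not tested.

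Both keratin clusters had a larger summed AUC in every TGFβ1 list than in solvent, also after scaling. In the type II cluster the summed AUC was 92220 in solvent and 141322, 136236 and 139895 after 6, 24 and 72 h, which gave scaled log2 changes of 0.17, 0.18 and 0.35. The peaks covered 45.7 kb in solvent and 59.3, 58.9 and 58.4 kb after TGFβ1, and the mean AUC per covered base was 2.02, 2.38, 2.31 and 2.39. The type I cluster held 36950 in solvent and 63482, 58321 and 50947 after TGFβ1, with scaled log2 changes of 0.34, 0.28 and 0.22, a covered length of 18.2, 24.9, 23.8 and 21.4 kb and a mean AUC per covered base of 2.03, 2.55, 2.45 and 2.38. All of these changes were smaller than 1.5-fold. The sums also count regions without a solvent peak, which the scaling did not use. Every TGFβ1 list held more peaks than solvent (107656, 118433 and 116720 against 86209), and no sum over all regions was set beside the clusters. The gain is therefore not shown to be particular to keratin genes. The type I value was largest at 6 h and the type II value at 72 h. Calculated as AUC per covered base, the scaled log2 changes of the type II cluster were -0.06, -0.06 and 0.07 and those of the type I cluster 0.03, 0.01 and 0.05. As cluster means these were all close to 0, while the covered length was larger. Single regions were higher or lower per covered base, as given below.

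**Figure D1:**
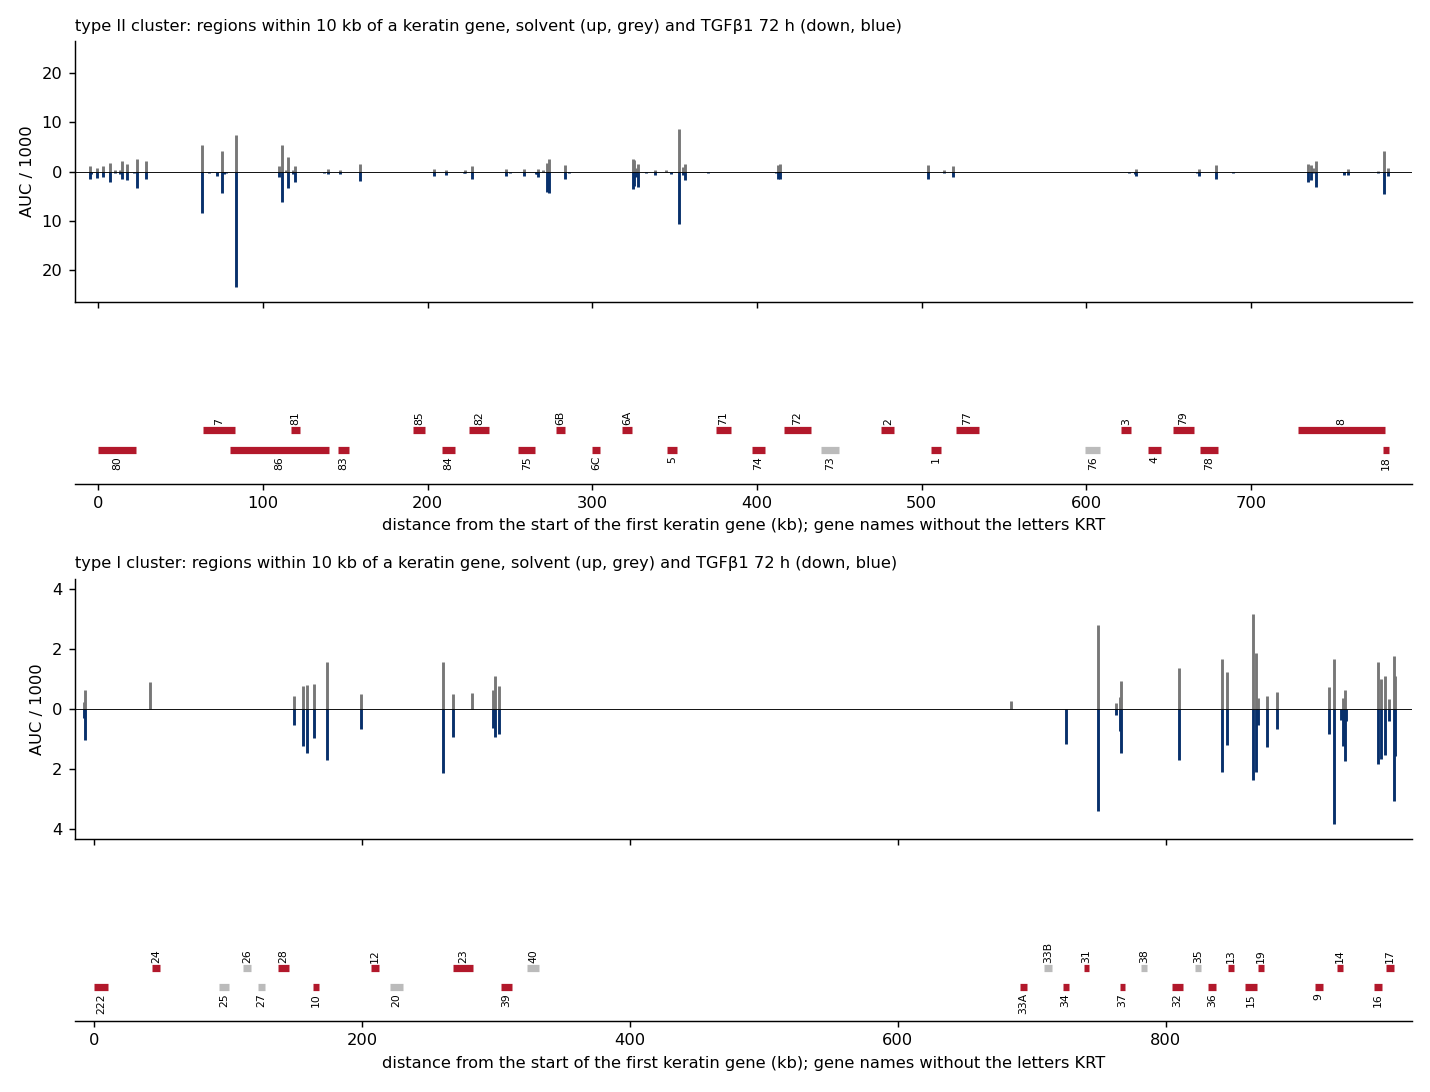
Deposited, unscaled AUC (divided by 1000) of every region within 10 kb of a keratin gene, drawn by distance from the first keratin gene of each cluster (kb), with solvent upward in grey and TGFβ1 72 h downward in blue; bars beneath are gene bodies, red with and grey without a region in any list. The type II map is dominated by the region across the 3′ part of KRT7 and the first part of KRT86, with an AUC of 7488 in solvent and 23455 at 72 h. The map of the type I cluster shows no keratin region in its middle, where the KRTAP genes lie.

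A single region added to the type II value at every time. Without the region of largest rise in each cluster, a choice made after its values were seen, the type II cluster gave 0.09, 0.12 and 0.21 at 6, 24 and 72 h and the type I cluster 0.31, 0.23 and 0.17. The 2 regions left out lie across the 3′ part of KRT7 and the first part of KRT86, and downstream of KRT14.

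Chromatin around the members was unevenly open in solvent. Of the 55 genes, 41 had a region within 10 kb in the solvent list and 10 had none in any list, namely KRT73, KRT76, KRT25, KRT26, KRT27, KRT20, KRT40, KRT33B, KRT38 and KRT35, 8 of which belong to the hair follicle and nail group. The remaining 4, KRT6C, KRT71, KRT2 and KRT34, had one in a TGFβ1 list alone. Per kb of gene body with its flanks, the solvent AUC was highest at KRT5 with 446, KRT81 with 438 and KRT7 with 428. KRT80 followed with 319 and KRT86 with 296, and KRT18 had 217, KRT8 161 and KRT14 137. At their own promoter, within 1 kb of the canonical TSS, 13 genes had a region in solvent and 15 in any list. Neighbouring genes share regions, since 48 of the 132 regions lay within 10 kb of at least 2 members, and KRT16 and KRT17 have the same 6 regions.

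Called gene by gene, 3 of 41 members were higher at 6 h, 6 of 39 at 24 h and 8 of 39 at 72 h. Over all protein-coding genes with a region in both lists the shares called higher at these times were 4.7%, 10.5% and 11.4%. Lower calls were made for 1 member at 6 h, where the share of all genes was 0.11%, and for none at 24 h (0.341% of all genes) or 72 h (0.578%). The median scaled log2 change of the members was 0.14, 0.18 and 0.23, against 0.03, 0.06 and 0.06 over all genes. Since members share regions, these counts are not independent of each other. Per covered base, 0, 0 and 1 members were higher at 6, 24 and 72 h, the last being KRT6B, and KRT9 and KRT79 were lower at 72 h.

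**Figure D2:**
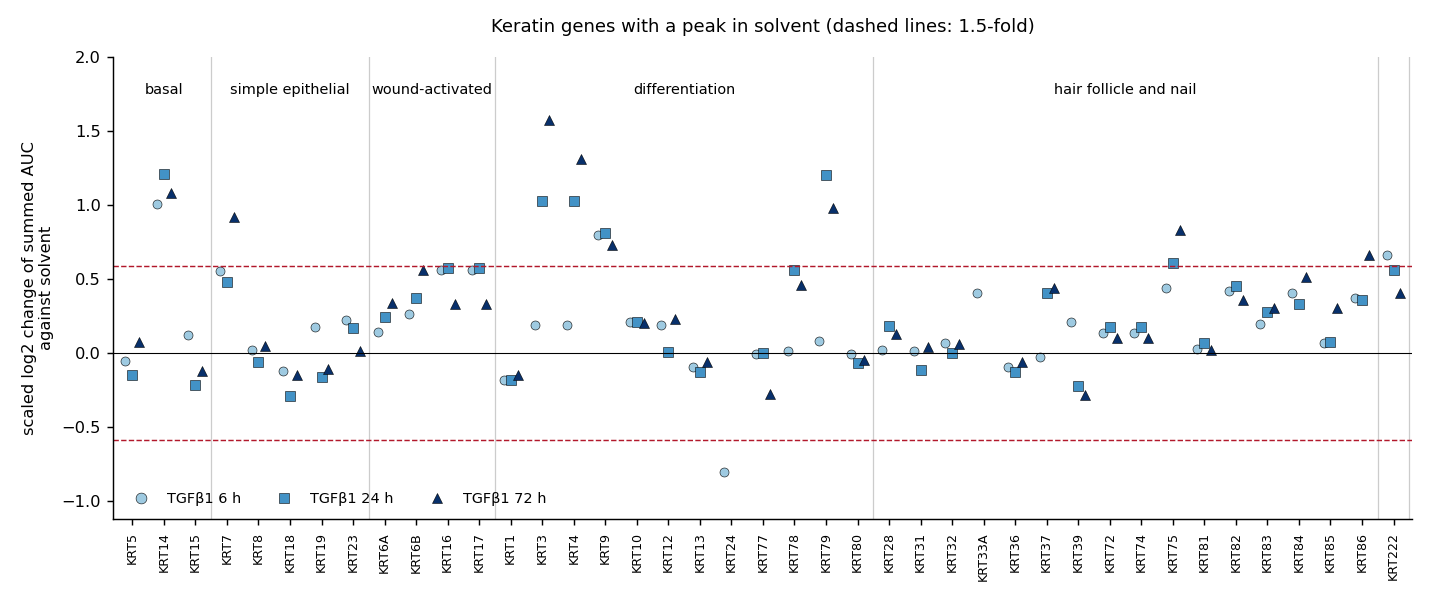
Scaled log2 change of the AUC summed within 10 kb of each keratin gene against solvent, for the 41 genes with a solvent region, grouped by known role; circles, squares and triangles are 6, 24 and 72 h of TGFβ1, each from 1 pooled list without error, and dashed lines mark 1.5-fold. KRT14 lies above the line at all 3 times (1.01, 1.21 and 1.08), KRT5 near 0, and the single point under the lower line is KRT24 at 6 h (-0.81).

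Among the basal keratins, KRT14 and KRT5 differed. KRT14, which encodes the type I chain of basal cells, had a summed AUC of 3371 in solvent and 9194, 10137 and 8450 after 6, 24 and 72 h, and was 2.01-, 2.31- and 2.11-fold higher after scaling. All 3 TGFβ1 lists were thus above solvent, with little difference among them. Its covered length rose together with the sum, from 1.88 kb to 4.41, 4.94 and 4.46 kb, and per covered base the scaled log2 change was -0.08, -0.06 and -0.10. KRT5, its type II partner, had 11573 in solvent and 15105, 13600 and 14427 after TGFβ1, with scaled log2 changes of -0.06, -0.15 and 0.07. KRT15, a type I keratin of basal cells, had 5774, 8516, 6461 and 6285, with scaled log2 changes of 0.12, -0.22 and -0.12. Of the 3 basal keratins, KRT14 was therefore the one called higher, at every time.

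The KRT14 difference was made up of several regions. The promoter region had an AUC of 357 in solvent and 1196, 1479 and 1242 after TGFβ1, with scaled log2 changes of 1.30, 1.67 and 1.55. The intergenic region chr17:41588182-41588928, whose summit lies 1680 bp upstream of the TSS, had 628 in solvent and 1891, 1900 and 1732, with changes of 1.15, 1.22 and 1.22. Both were also higher per covered base, by 1.10, 1.18 and 1.17 for the promoter and by 0.79, 0.92 and 0.77 for the upstream region. Another region, chr17:41579469-41581819, lies 7231 bp downstream of the TSS, between KRT9 and KRT14, and had 1667, 4192, 4355 and 3848, with changes of 0.89, 1.01 and 0.96. In that region the covered length went from 711 bp in solvent to 2121, 2284 and 2312 bp, and per covered base the change was negative, at -0.54, -0.55 and -0.67. Further regions had no solvent peak. One in an intron of KRT14 had 275, 395 and 365, and another, 2614 bp upstream, had 564, 622 and 413. KRT9, the keratin of palm and sole epidermis, was called higher at all 3 times, by 0.80, 0.81 and 0.73, with its largest region being the one it shares with KRT14. Per covered base the direction of KRT9 was the opposite, at -0.58, -0.54 and -0.67, and with each region given to 1 gene its changes were 0.57, 0.24 and -0.0044, so no call was left.

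**Figure D3:**
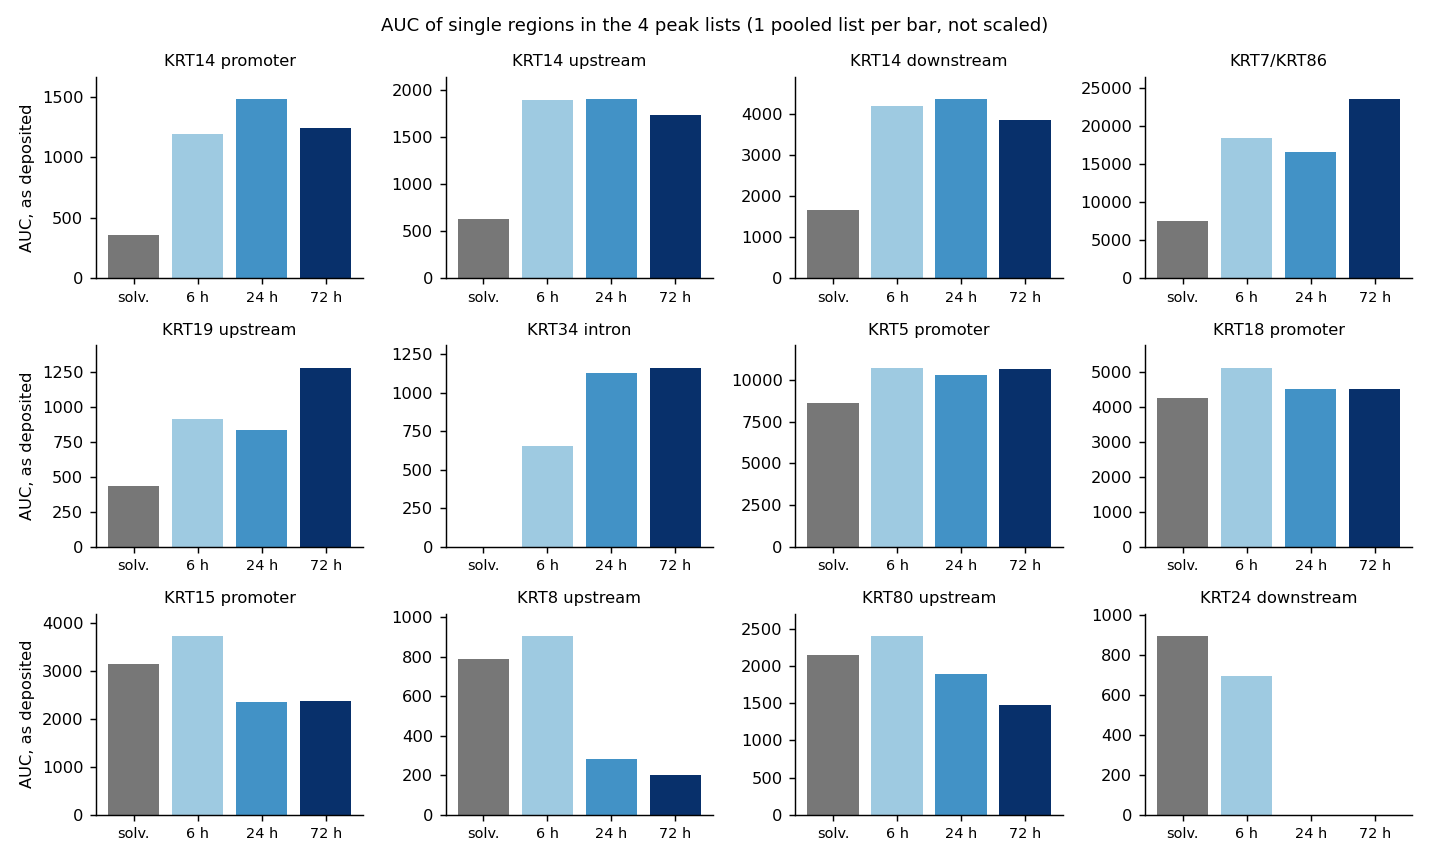
AUC as deposited, not scaled, of 12 regions in the 4 peak lists (grey solvent, light to dark blue TGFβ1 6, 24 and 72 h), 1 pooled list per bar, so no error bars; an absent bar means no peak in that list. The KRT14 regions are high in all TGFβ1 lists, the KRT5 and KRT18 promoter regions differ little, and the KRT8 upstream region goes from 790 in solvent to 204 at 72 h.

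The promoters of the other 3 markers differed less. The KRT5 promoter region, the largest of the type II cluster in solvent, had 8598, 10730, 10287 and 10673, with scaled log2 changes of -0.12, -0.12 and 0.06. The 3 regions at the promoter of the canonical KRT8 TSS summed to 2966, 4098, 4061 and 3883, with changes of 0.02, 0.07 and 0.14. The KRT18 promoter region, which also overlaps an annotated KRT8 TSS, had 4246, 5111, 4498 and 4514, with changes of -0.17, -0.30 and -0.16. Per covered base, the solvent AUC of the KRT14 promoter region was 0.913, against 2.92 at KRT5 and 2.79 at KRT18, and of the 4 promoters it was the one called higher.

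Near these open promoters, single regions were lower. Upstream of the canonical KRT8 TSS, chr12:52906225-52906757 overlaps another annotated KRT8 TSS and an untranslated exon of KRT8. Its AUC was 790 in solvent and 906 at 6 h, but 284 at 24 h and 204 at 72 h. The value at 72 h is close to the smallest AUC that a list holds. The scaled log2 changes were -0.24, -1.85 and -2.20, the largest decrease among the keratin regions at 72 h. Per covered base they were -0.21, -0.65 and -0.92, still beyond 1.5-fold at 24 and 72 h. Upstream of KRT5, chr12:52523826-52524362 had 907, 914, 525 and 662, with changes of -0.43, -1.17 and -0.70. Its changes per covered base were -0.35, -0.58 and -0.31, under the 1.5-fold mark, at 24 h only just. A small region 6545 bp downstream of the KRT5 TSS had 225 in solvent and 270 at 6 h and no peak afterwards. At KRT5 there were gains as well, in an exon (no solvent peak and 561, 532 and 531 afterwards) and in an intergenic region 13158 bp downstream of the TSS (302, 653, 613 and 785, with changes of 0.67, 0.64 and 1.13). The covered length of this intergenic region went from 224 bp in solvent to 401, 386 and 412 bp. Per covered base its changes were -0.02, -0.02 and 0.32, under the 1.5-fold mark. At KRT8, no region was called higher, and an intronic one without a solvent peak had 288, 390 and 667 after TGFβ1.

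KRT15 and KRT19, neighbours on chromosome 17, share 4 regions. The KRT15 promoter region, chr17:41518845-41520179, was the largest of the type I cluster in solvent, where its AUC was 3138, and it had 3731, 2352 and 2374 after TGFβ1. It was called lower at 24 and 72 h, with changes of -0.80 and -0.65 after -0.19 at 6 h. Per covered base its changes at 6, 24 and 72 h were -0.03, -0.37 and -0.50, under the 1.5-fold mark. A region 2022 bp upstream of the TSS of KRT19, the smallest type I keratin, had 434, 912, 837 and 1279, with changes of 0.63, 0.57 and 1.31. Its changes per covered base were 0.09, -0.17 and 0.59. KRT19 had no region within 1 kb of its canonical TSS in any list, and its gene sum of 6331, 9696, 7360 and 6964 gave 0.17, -0.16 and -0.11.

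Of the 6 simple epithelial keratins, 5 had a solvent region, and KRT7 was the one called higher, at 72 h. KRT7, a type II keratin of glandular ducts, had a sum of 16997 in solvent and 33859, 30843 and 38229 after TGFβ1, with scaled log2 changes of 0.55, 0.48 and 0.92. Most of this lay in one region of 10494 bp, chr12:52247173-52257666, which spans the 3′ part of KRT7 and the first part of the KRT86 annotation. There the solvent list had 6 separate peaks with a summed AUC of 7488, while the 6 and 72 h lists had 1 peak each, of 18461 and 23455, and the 24 h list 2 with 16618. The scaled log2 changes were 0.86, 0.77 and 1.40, and per covered base 0.33, 0.25 and 0.76. The KRT7 promoter region had 5309, 9090, 8124 and 8477, with changes of 0.33, 0.23 and 0.43, and 4 regions inside the gene body, none with a solvent peak, were gained in all TGFβ1 lists, the strongest with 526, 482 and 882. KRT86, a hair keratin whose annotated transcripts reach into the same interval, was called higher at 72 h (0.67), and the values of both genes rest on that shared region. Per covered base the changes at 72 h were 0.34 for KRT7 and 0.21 for KRT86, both under the 1.5-fold mark. With each region given to 1 gene, KRT7 had 0.39 at 72 h, also under that mark. This assignment gave the shared region to KRT86, which stayed above the 1.5-fold mark.

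KRT8 and KRT18 as genes were close to solvent, with scaled log2 changes of 0.02, -0.06 and 0.05 for KRT8 and of -0.12, -0.29 and -0.15 for KRT18. All 3 regions of KRT18 also lie within 10 kb of KRT8, so the KRT18 sum is part of the KRT8 sum. KRT23, a type I keratin of simple epithelia, had 0.22, 0.17 and 0.01. Its region 863 bp inside the gene had 525, 386 and 288 in the first 3 lists and no peak at 72 h, while another 3′ of the gene was higher, with 489, 1044, 1229 and 939 (changes of 0.65, 0.95 and 0.69). KRT20, a keratin of the gut lining, had no region.

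No wound-activated keratin was called at any time, but all 4 with a solvent region had positive scaled changes of the sum at every time. KRT16 and KRT17, which are read from the same 6 regions and so give 1 value, had 6799, 13618, 13192 and 10137. They were 1.47-, 1.49- and 1.26-fold higher after scaling, so the first 2 values were just under the 1.5-fold mark. Their covered length went from 3.27 kb in solvent to 5.17, 5.37 and 4.19 kb. Per covered base their scaled log2 changes were 0.045, -0.015 and 0.042. The KRT17 promoter region had 1741, 3862, 3640 and 3058, with changes of 0.71, 0.68 and 0.57. Its covered length went from 769 bp in solvent to 1255, 1217 and 1195 bp, and per covered base the changes were 0.15, 0.15 and 0.00069. A region between the genes, chr17:41617765-41619612, had 1098, 3036, 2737 and 1552, with changes of 1.03, 0.94 and 0.25. Its AUC was thus called higher at 6 and 24 h and not at 72 h. The covered length was 1044 bp in solvent and 1773, 1834 and 1099 bp after TGFβ1. Per covered base the changes were 0.41, 0.25 and 0.25, under the 1.5-fold mark. KRT6A had 0.14, 0.24 and 0.34, its promoter region with 2645, 3787, 3850 and 3549, and KRT6B 0.26, 0.37 and 0.56. The KRT6B promoter region had 1339, 1910, 1548 and 1423, with changes of 0.07, -0.17 and -0.16. The positive sums of KRT6B rest on regions between KRT75 and KRT6B that both genes share. KRT6C had a single peak, at its promoter in the 24 h list (349). KRT6A, KRT6B and KRT6C are nearly identical copies, so reads from one may not be placed with certainty, and this was not tested.

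Of the 14 differentiation keratins, 12 had a solvent region. Higher calls were made for KRT9 at 6 h, and for KRT3, KRT4, KRT9 and KRT79 at 24 and 72 h. KRT3, a corneal keratin, had 464, 717, 1232 and 1637, with changes of 0.19, 1.03 and 1.57. KRT4, the mucosal keratin beside it, had the same first 3 sums and 1367 at 72 h, because both are read from the same regions. KRT79 had 526, 755, 1575 and 1232, with changes of 0.08, 1.20 and 0.98. These sums were small, and the genes had 1 region in solvent and 2 or 3 at 72 h, so part of each difference is a region without a solvent peak. Per covered base the changes at 24 and 72 h were negative, at -0.24 and -0.28 for KRT3, -0.24 and -0.0099 for KRT4 and -0.54 and -0.73 for KRT79. KRT10, with a sum of 3936 in solvent, had 0.21, 0.21 and 0.20, KRT1 -0.18, -0.18 and -0.15 and KRT77 -0.28 at 72 h. KRT80, the strongest of the group, had 13735, 18540, 17049 and 15756, with changes of -0.01, -0.07 and -0.05. The region at its TSS had changes of -0.03, -0.09 and 0.11, whereas chr12:52197656-52198977, 6038 bp upstream, had 2152, 2404, 1897 and 1473, with changes of -0.28, -0.56 and -0.79. Per covered base this upstream region had -0.12, -0.42 and -0.05, under the 1.5-fold mark. Its covered length was 1310 bp in solvent and 819 bp at 72 h.

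KRT24 was the one member called lower. Its only region, an intergenic one at chr17:40696576-40697070 whose summit lies 7091 bp downstream of the TSS, had 897 in solvent and 696 at 6 h (-0.81), and no peak at 24 or 72 h. The other member with a solvent region and none at 24 or 72 h was KRT33A, with 259 and 466 in the first 2 lists.

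Of the 26 hair follicle and nail keratins, 16 had a solvent region. KRT75, a keratin of the hair follicle companion layer, was called higher at 24 and 72 h. It had 6035, 11100, 11985 and 12721, with changes of 0.44, 0.61 and 0.83, and per covered base of 0.44, 0.46 and 0.53, under the 1.5-fold mark. The intergenic region chr12:52440779-52441997, between KRT75 and KRT6B, had 1792, 3598, 3874 and 4164, with changes of 0.56, 0.73 and 0.97 and per covered base of 0.60, 0.78 and 0.95. At the KRT75 promoter there was no solvent peak, and the sum was 464, 650 and 1023 afterwards. KRT34, a hair cortex keratin, had its only region inside an intron, with no solvent peak and 651, 1130 and 1163 after 6, 24 and 72 h. KRT39 had -0.28 and KRT31 0.04 at 72 h. KRT222, which lies at the edge of the type I cluster and is placed in no role group, had 862, 1856, 1658 and 1352, with changes of 0.67, 0.56 and 0.40, and was called higher at 6 h. Both of its regions have their summit at untranslated exons of SMARCE1, which encodes a chromatin remodelling subunit, 17557 and 17078 bp from the KRT222 TSS. When a region was kept only if the nearest protein-coding TSS was that of a keratin gene, KRT222 had none and 2 members were called higher at 6 h.

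Region by region, 88 of the 132 had a peak in all 4 lists. Gained in all 3 TGFβ1 lists were 14, of which 11 in the type II and 3 in the type I cluster, and 4 were lost at both 24 and 72 h. Against solvent, 22 of 118 regions were gained at 6 h, 25 of 121 at 24 h and 25 of 121 at 72 h, while of all merged regions 22.9%, 29.8% and 29.3% were gained. Lost were 2, 5 and 6, against 0.551%, 1.31% and 2.43% of all regions. Among regions with a peak in both lists, 16 of 94, 19 of 91 and 18 of 90 were called higher, where the share of all regions was 11.7%, 20.3% and 22.9%. Called lower were 2, 5 and 6, where the share of all regions was 1.4%, 3.22% and 3.9%. The counts of higher regions at 24 and 72 h were thus close to the background.

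**Figure D4:**
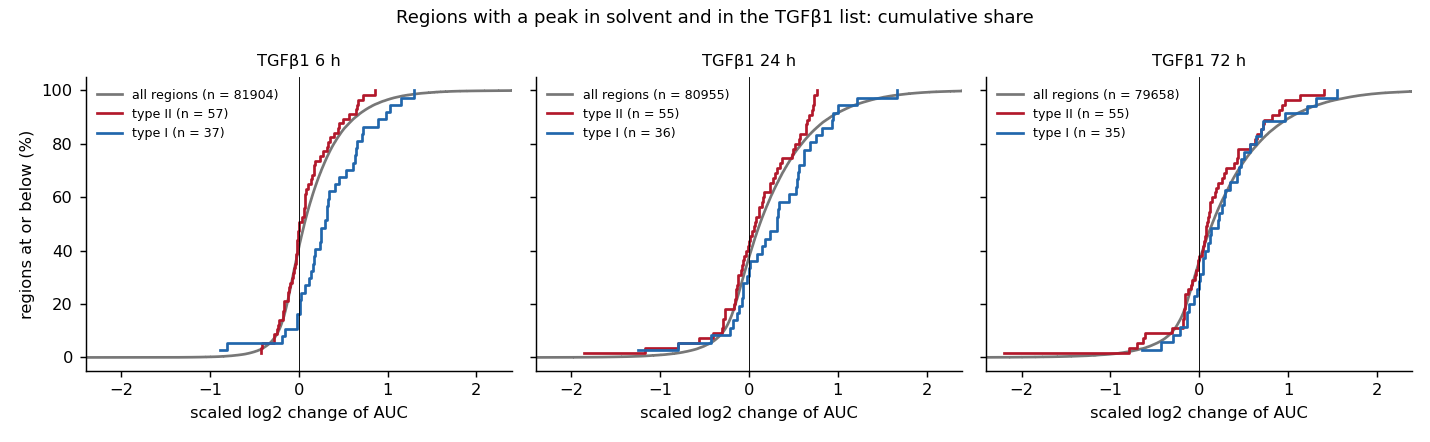
Cumulative share (%) of regions at or below each scaled log2 change of AUC, at 6, 24 and 72 h of TGFβ1 against solvent, for all merged regions (grey) and the regions of the type II (red) and type I (blue) clusters with a peak in both lists. At 6 h the type I curve lies to the right of the others (median 0.29, against 0.01 for type II and 0.06 for all regions), and at 72 h the 3 curves lie close together.

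The median scaled log2 change of the type I regions was 0.29, 0.31 and 0.21 and that of the type II regions 0.01, 0.07 and 0.09, beside 0.06, 0.12 and 0.15 over all regions. At 6 h, 31 of 37 type I regions (83.8%) and 30 of 57 type II regions (52.6%) were above 0, against 59.1% of all regions. Regions within 3 kb of a TSS (proximal) and the remaining ones (distal) differed between the clusters. Proximal regions of the type I cluster had medians of 0.32, 0.39 and 0.28 and distal ones 0.19, 0.08 and 0.07, whereas proximal regions of the type II cluster had 0.00, 0.03 and 0.08 and distal ones 0.05, 0.09 and 0.12. Over all regions the proximal median is 0, which the scaling fixes, and the distal median was 0.12, 0.23 and 0.27.

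Of the strongest summits, 41 of 132 (31.1%) held an AP-1 motif within 100 bp, and 40901 of all 126658 regions did (32.3%). An E-box was present at 34 keratin regions (25.8%) and at 17.9% of all regions, and a TFAP2 pattern at 15 (11.4%) and at 10.4%. The GRHL pattern was present at none of the 132 and at 0.0521% of all regions. The median GC content of the windows was 54.0% near keratin genes and 48.3% over all regions. Among regions called higher at 72 h, 5 of 18 keratin regions (27.8%) and 46.3% of all such regions held the AP-1 motif, and among regions gained at 72 h 8 of 25 (32%) and 39.9%. These are counts of letters and not of bound sites.

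Other genes of the filament system were read the same way. Of 15 non-keratin intermediate filament genes, 14 had a solvent region, and 0, 1 and 1 were called higher at 6, 24 and 72 h, with medians of 0.00, -0.01 and 0.01. VIM, which encodes the mesenchymal filament protein vimentin, had 8879 in solvent and 13559, 11550 and 11429 after TGFβ1, with scaled log2 changes of 0.17, -0.00038 and 0.12. None of the 9 plakins and keratin linkers, which tie filaments to junctions, was called in either direction at any time, and their medians were 0.10, 0.01 and 0.01. Of the 34 KRTAP genes, which encode matrix proteins of hair and lie inside the type I cluster, 7 had a solvent region and 2, 5 and 5 of these 7 were called higher. Neighbouring KRTAP genes share regions, so these counts are not independent of each other.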

How the data were processed

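ATAC-seq was done on 8 libraries of MCF10A cells, 2 for each of 4 conditions. Per the submitters' processing notes and methods, the authors trimmed reads with Trimmomatic 0.38, aligned them to GRCh38 with Bowtie2 2.4.5, removed duplicates (Picard), low mapping quality and mitochondrial reads (SAMtools 1.4.1), ran Genrich 0.5 (ATAC-seq setting) with the replicates of a condition combined and removed blacklisted regions. The deposited signal value of each peak is its AUC, not scaled between lists, with a minimum of 200, and each list's condition was read from the authors' own naming. No read counts were used, so the usable depth and the precision are unknown.

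Peaks sharing at least 1 bp were merged over the 4 lists. AUC was summed per region, gene (body with 10 kb on each side, GENCODE annotation) and cluster, and each list was scaled by its median log2 ratio to solvent at regions within 3 kb of a TSS. Calls needed a 1.5-fold scaled change. No peak reached beyond a chromosome end of hg38, from which sequences were read. Some sequence windows are not reported here. Named genes were the 4 markers, the 5 members with the largest solvent sum in each cluster, the 3 largest rises and falls at 72 h with a solvent sum of at least 1000, those with a gained or lost promoter region and the strongest of each role group. Named regions were the 5 strongest, rising, falling, gained and lost. KRT3, KRT4, KRT6B, KRT9, KRT79, KRT81, KRT24, KRT34, KRT33A, KRT31, KRT71, KRT2 and the regions described beyond that were chosen after their values were seen. The members and lists were chosen with earlier results of these data known. The scripts (Python 3.11.15, pandas, numpy) were tested on simulated lists. Alternatives changed the AUC minimum, the window, the scaling, the assignment of regions and the overlap.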

Additional observations from a re-analysis of the deposited data

How the results depend on the processing

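Across alternatives, 100 of 144 cluster values and counts stayed within 0.2 on the log2 scale or within 1.5 times the count. Without scaling, the type II cluster gave 0.62, 0.56 and 0.60 at 6, 24 and 72 h and the type I cluster 0.78, 0.66 and 0.46. Members called higher were then 21, 19 and 14 and members lower at 6 h 0, while regions called higher were 44, 41 and 29 and lower 0, 3 and 1. As AUC per covered base, the type II cluster gave -0.056, -0.058 and 0.071 and the type I cluster 0.029 and 0.011 at 6 and 24 h. Members called higher were 0, 0 and 1 and members lower at 72 h 2. Regions higher were 6, 7 and 9 and regions lower at 72 h 3. Of the members called at 1.5-fold, 5 changed sign there: KRT14 to -0.078, -0.061 and -0.096 and KRT9 to -0.578, -0.538 and -0.672 at 6, 24 and 72 h, and, at 24 and 72 h, KRT3 to -0.237 and -0.283, KRT4 to -0.237 and -0.0099 and KRT79 to -0.539 and -0.727. With peaks of AUC 400 or more, 8 and 11 members were higher at 6 and 24 h, 1 and 2 regions lower at these times, and 1, 3 and 3 regions lost at 6, 24 and 72 h. Within 3 kb, 1 and 3 regions were lost at 6 and 24 h. Scaling on all regions left 12 and 10 regions higher at 24 and 72 h. With 50% reciprocal overlap, 6, 13 and 14 regions counted as lost. With each region given to 1 member, 5 members were higher at 6 h and KRT9 changed sign at 72 h, to -0.0044. The cause of these shifts was not tested. Of 789 values of single members, 557 stayed within 0.2.

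No paired analysis was possible because both replicates of a condition were called into 1 pooled list, so the replicate numbers carry no values, and no replicate can be left out. The AUC depends on depth, and the usable depth is unknown.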

Other observations

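Of the 34 KRTAP genes, which encode the matrix proteins of hair and lie inside the type I keratin cluster, 7 had a solvent region. At 24 and 72 h, 5 of these 7 were called higher, and those 5 are read from few, shared regions. KRTAP4-6 had a summed AUC within 10 kb of 565 in solvent and 1763, 2272 and 2325 after 6, 24 and 72 h, with scaled log2 changes of 1.20, 1.63 and 1.79. KRTAP4-5, which is read from 1 of the same regions, had 565, 1264, 1571 and 1720, with changes of 0.72, 1.10 and 1.36. KRTAP4-8, KRTAP4-9 and KRTAP4-16 had identical sums of 266, 411, 744 and 842, since they share their regions. KRTAP2-3 and KRTAP2-4 had no solvent peak and the same 405, 1095 and 1664 afterwards. KRTAP16-1 and KRTAP29-1 stayed below the 1.5-fold mark, with -0.14, -0.02 and 0.09. In all, 15 of 34 KRTAP genes had a region in some list. These genes are tandem copies of similar sequence, and the placement of reads among them was not tested.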
